A study of Homo sapiens with 6 samples.

Results

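The G1 cyclins, their cyclin-dependent kinases (CDKs) and 2 inhibitors of the CIP/KIP family were followed in IMR32, an established human neuroblastoma line with an amplified MYCN gene. The members were 10 genes fixed by name, CCND1, CCND2, CCND3, CCNE1, CCNE2, CDK2, CDK4, CDK6, CDKN1B and CDKN1C. All probe sets with 1 of these as the only symbol in the platform annotation were used, 29 of the 54675 on the array. The 6 samples were 3 arrays of cells given 0.1% DMSO and 3 of cells given 118 µM teriflunomide, each for 24 h, starting 12 h after seeding. Teriflunomide inhibits dihydroorotate dehydrogenase, an enzyme of pyrimidine synthesis. Whether the treated wells also held DMSO is not given in the sources used here. The labels call the arrays of each group biological replicates, without saying how the cultures were separated, and the p-values measure the spread between these samples. One cell line limits the comparison to that line.

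D cyclins (CCND1 to CCND3) bind CDK4 and CDK6, and E cyclins (CCNE1 and CCNE2) bind CDK2. Both kinds of complex phosphorylate the retinoblastoma protein, which releases E2F transcription factors and lets cells pass from G1 into S phase. CDKN1B (p27) and CDKN1C (p57) bind these complexes and restrain CDK2. In neuroblastoma, CCND1 and CDK4 are known for high expression or gene amplification. Much of the control over these proteins is by synthesis, breakdown and phosphorylation, none of which an RNA array measures.

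With teriflunomide, cyclin D1 RNA rose 1.51-fold while cyclin E1 RNA fell to 0.554 of its DMSO level. CDK4 and CDK6 fell slightly on the probe sets that stand for them, CDKN1B rose slightly, and CCND3 and CDK2 did not pass the test. In RNA from whole cultures, fewer cells in a phase of the cycle and less RNA per cell cannot be told apart. Of the 10 genes, 9 had a probe set above the filter. Limma called 3 higher and 3 lower at an adjusted p under 0.05. Across all 11998 genes tested, 29.7% were called higher and 28.9% lower, 58.6% in either direction. The members' 6 of 9 therefore lies near the background share. No called member reached a 2-fold change at gene level (0 of 9, against 9.77% of all genes), and the median log2 change was -0.09 for the members and 0.0015 for all genes. The median size of the change, whatever its sign, was 0.23 in the members and 0.29 in all genes.

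Probe sets on this array carry log2 intensities, so a difference of 1 is a doubling. Intensities of different probe sets were not set against each other as levels of RNA. All arrays shared a lowest value of 2.18, and their medians lay between 2.63 and 2.66. Of the 29 member probe sets, 17 passed the filter on dim values. Of these, 5 were called higher, 6 lower and 6 did not pass, against 23.7% higher and 25.2% lower (48.8% together) among all 27290 probe sets tested. Without teriflunomide replicate 1 or 2, 3 were called higher. The other 12 stayed at or below 3.06 on every array, 7 of them at the lowest value on all 6. Treated and control arrays were fully separated for 7 of the 9 tested genes, as they were for 67.0% of all genes, and for 12 of the 17 tested probe sets, as for 60.0% of all.

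**Figure D1:**
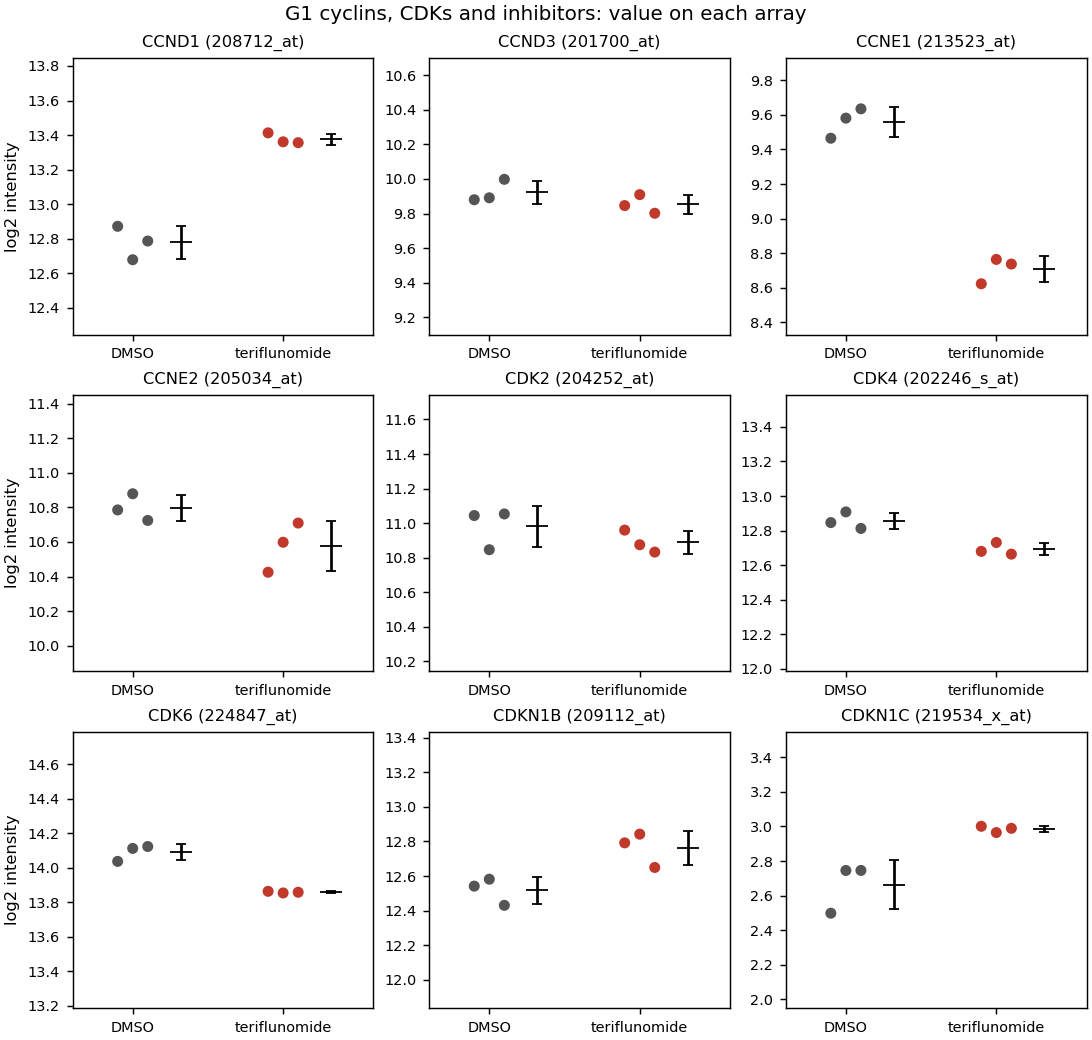
Log2 intensity of the probe set that stands for each of the 9 tested genes on each of the 6 arrays (grey points DMSO, red points teriflunomide; black bars mean ± SD, n = 3 per group). Every panel spans the same log2 range; CCND1 lies higher and CCNE1 lower on all teriflunomide arrays, while the groups overlap for CCND3 and CDK2.

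Sequence upstream of the start sites was read from RefSeq's promoter table of build GRCh38.p14, which matched 5 of the 10 genes with 8 entries. Shown here are the 250 bases before the start for 3 genes that stand at different points of the comparison: CCNE1, which fell most, CDK4, which fell slightly, and CDKN1B, which rose. Each is written 5′ to 3′ on the gene's strand.
CCNE1, chr19:29811741-29811990, + strand, capitals mark the GC box GGGCGG or its reverse complement CCGCCC: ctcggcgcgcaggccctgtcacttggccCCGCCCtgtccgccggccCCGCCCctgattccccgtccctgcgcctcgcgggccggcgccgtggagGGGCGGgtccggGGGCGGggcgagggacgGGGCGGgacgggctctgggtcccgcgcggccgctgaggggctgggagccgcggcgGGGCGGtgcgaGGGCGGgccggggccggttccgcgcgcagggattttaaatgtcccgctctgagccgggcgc
CDK4, chr12:57752311-57752560, - strand, capitals mark the E-box CACGTG: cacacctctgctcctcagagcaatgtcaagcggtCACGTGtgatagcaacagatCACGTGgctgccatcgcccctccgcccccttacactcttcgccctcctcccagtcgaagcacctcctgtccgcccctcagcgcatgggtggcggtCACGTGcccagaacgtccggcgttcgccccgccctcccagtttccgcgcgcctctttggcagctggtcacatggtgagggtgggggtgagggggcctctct
CDKN1B, chr12:12717118-12717367, + strand, capitals mark the CCAAT box: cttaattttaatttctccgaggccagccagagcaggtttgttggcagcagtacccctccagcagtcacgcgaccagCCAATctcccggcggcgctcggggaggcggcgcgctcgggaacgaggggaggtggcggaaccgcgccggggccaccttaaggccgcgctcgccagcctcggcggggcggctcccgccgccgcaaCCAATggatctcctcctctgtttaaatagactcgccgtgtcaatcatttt

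The CCNE1 stretch is 81.2% G or C and held 7 matches to the GC box, the element bound by SP1-type factors. At least 7 such matches, on either strand, occurred in 1.12% of the 35116 upstream stretches of the same length. Those stretches were not matched to CCNE1 for their share of G or C. CDK4 held 3 matches to the E-box bound by MYC family proteins, a number reached by 0.0797% of all stretches, and 6.34% held at least 1. CDKN1B held 2 matches to CCAAT, bound by NF-Y, as did 9.53% of stretches with 2 or more. The E2F letters TTTNNCGC, the cyclic AMP element TGACGTCA and the C/EBP-ATF letters TGATGNAAN were also searched on both strands. None of the 8 entries matched any of these 3, which 5.92%, 1.65% and 3.13% of all stretches did. The motif marked and counted for each gene was picked by name from those searched. GC boxes also lay, unmarked, in the CDK4 and CDKN1B stretches and in entries of CCND3 and CDK6, and CCAAT boxes in CCND3. At least 1 GC box occurred in 42.6% of all stretches. These letters were searched in a short window only, and a match is a description of the sequence. Other spellings of these elements were not searched, so a missing match does not show that an element is absent.

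Cyclin D1, encoded by CCND1 and the D cyclin that carries growth factor signals to CDK4 and CDK6, rose on both of its probe sets. On 208712_at the DMSO arrays read 12.87, 12.68 and 12.79 and the teriflunomide arrays 13.41, 13.36 and 13.36. All 3 treated arrays lay above all 3 controls. The means were 12.78 ± 0.10 and 13.38 ± 0.03 (log2, SD, n = 3 per group), a log2 change of 0.60 (SE 0.06, 95% interval 0.46 to 0.74, limma adjusted p = 0.000475). The dimmer 208711_s_at went from 11.45, 11.31 and 11.41 to 12.13, 12.08 and 12.08. Its change was 0.70 (SE 0.05, limma adjusted p = 0.000261 over all probe sets). The rise of CCND1 exceeded the change of 76.2% of all genes in size.

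The other D cyclins gave a different picture. CCND3, on 201700_at, read 9.88, 9.89 and 9.998 in DMSO and 9.85, 9.91 and 9.80 with teriflunomide. These groups overlap, and the log2 change of -0.07 (SE 0.05, limma adjusted p = 0.263) has a 95% interval from -0.19 to 0.05. Its other probe set lay at the lowest value on all 6 arrays. The difference between CCND1 and CCND3 within each array went from 2.86 ± 0.12 to 3.52 ± 0.06 (log2, SD, n = 3 per group), a move of 0.67. All 3 treated arrays lay above the controls (exact permutation p = 0.1, two-sided, the smallest that 3 arrays against 3 allow). This difference was chosen after the values were seen, and the test does not settle whether the changes were unequal. CCND2 had 4 probe sets, none above the filter. Of these, 3 lay at the lowest value on every array, and 231259_s_at did not exceed 2.29, so no change could be measured for this D cyclin.

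Cyclin E1, encoded by CCNE1 and the partner that activates CDK2 late in G1, had the largest decrease among the members. Its probe set 213523_at read 9.47, 9.58 and 9.64 in DMSO and 8.62, 8.76 and 8.74 with teriflunomide, with no overlap. The mean went from 9.56 ± 0.09 to 8.71 ± 0.07 (log2, SD, n = 3 per group), a change of -0.85 (SE 0.06, 95% interval -1.01 to -0.70, limma adjusted p = 0.000206). The size of this change exceeded that of 86.6% of all genes. A further CCNE1 probe set, 242105_at, stayed at the lowest value throughout.

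CCNE2, which encodes the related cyclin E2, had negative changes on both probe sets, of different size. On the brighter 205034_at the arrays read 10.79, 10.88 and 10.72 in DMSO and 10.42, 10.60 and 10.71 with teriflunomide. The highest treated array lay just below the lowest control, and the log2 change of -0.22 (SE 0.08) did not pass (limma adjusted p = 0.0725). Without teriflunomide replicate 1, the lowest array, it was -0.14, and without teriflunomide replicate 3 it was -0.28 and passed (limma adjusted p = 0.0369). On 211814_s_at the arrays went from 6.27, 6.35 and 6.30 to 5.67, 5.47 and 5.71, well apart. That change of -0.69 (SE 0.07, 95% interval -0.87 to -0.50) passed with a limma adjusted p of 0.00115. As the mean of its probe sets, CCNE2 changed by -0.45 and passed (limma adjusted p = 0.00178).

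Whether CCNE1 changed more than CCNE2 was not settled, and differed with the CCNE2 probe set. Against 205034_at, the difference CCNE1 minus CCNE2 within arrays moved by -0.63 (exact permutation p = 0.1). Against 211814_s_at it moved by -0.17, with overlapping groups (exact permutation p = 0.3). These are 2 of 5 such differences tested, all chosen after the values were seen; Benjamini-Hochberg adjustment over the 5 gave 0.167 and 0.3, and 0.167 for CCND1 minus CCND3.

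**Figure D2:**
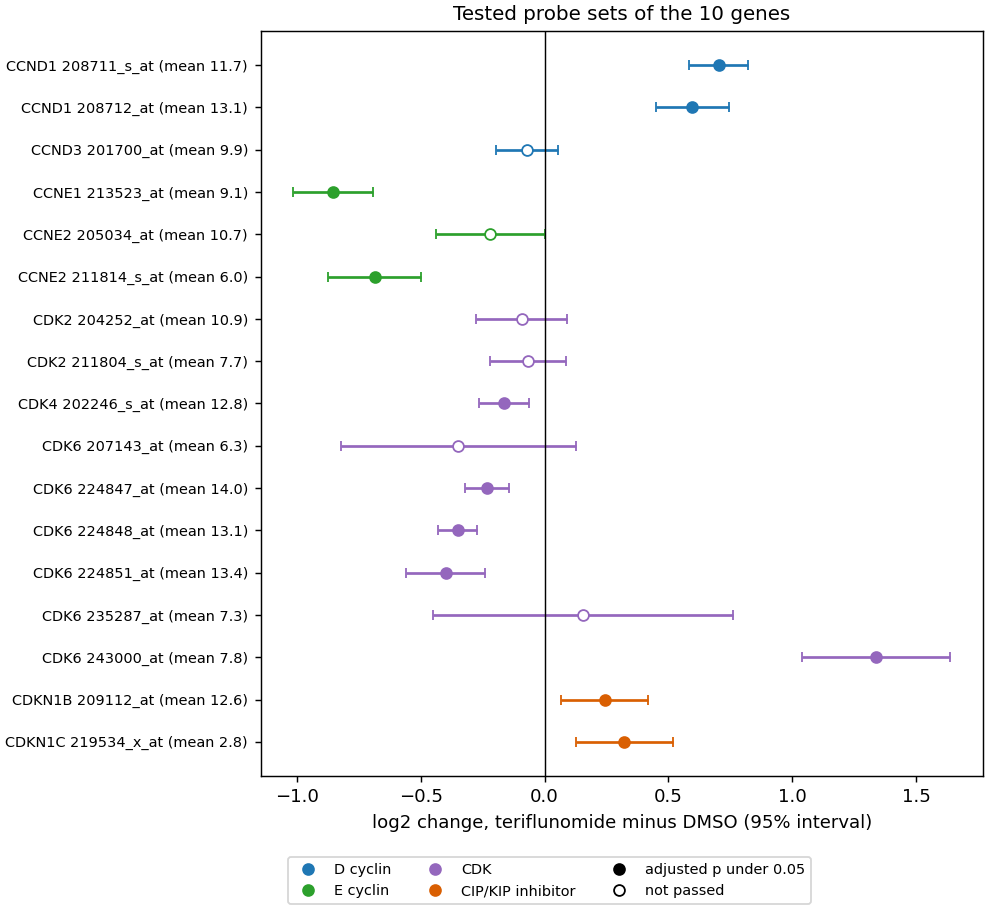
Log2 change (teriflunomide minus DMSO) with its 95% interval from limma for the 17 tested probe sets of the 10 genes; colours give the role, filled points passed an adjusted p of 0.05, and the mean over the 6 arrays stands beside each name. Both CCND1 probe sets lie above 0 and the CCNE1 probe set lies furthest below, while CDK6 probe sets lie on both sides, from -0.40 to 1.34.

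The kinases moved little on their brightest probe sets. CDK4, a partner of the D cyclins, read 12.85, 12.91 and 12.81 in DMSO and 12.68, 12.73 and 12.66 with teriflunomide on its only probe set. The groups were apart but close, with a log2 change of -0.16 (SE 0.04, 95% interval -0.26 to -0.07, limma adjusted p = 0.0149), or 0.892 of the DMSO level. Adjusted over all probe sets, that call was lost with arrays centred on the median and without teriflunomide replicate 1 or 3.

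CDK2, the partner of the E cyclins, did not pass on either tested probe set. On 204252_at it read 11.04, 10.85 and 11.05 in DMSO and 10.96, 10.87 and 10.83 with teriflunomide. The groups overlapped, with a change of -0.09 (SE 0.07, 95% interval -0.27 to 0.09, limma adjusted p = 0.308). The dimmer 211804_s_at changed by -0.07, and 211803_at lay at the lowest value on all arrays.

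CDK6, the other partner of the D cyclins, had 7 probe sets, of which 6 were tested, and they disagreed in direction. The brightest, 224847_at, read 14.04, 14.11 and 14.12 in DMSO and 13.86, 13.85 and 13.86 with teriflunomide. All treated arrays lay below the controls, and the change was -0.23 (SE 0.03, limma adjusted p = 0.0025). The other bright probe sets fell as well. On 224848_at the change was -0.35 (SE 0.03), and on 224851_at it was -0.40 (SE 0.06). The 3 bright probe sets thus gave 0.758 to 0.851 of the DMSO level.

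A dimmer CDK6 probe set, 243000_at, moved the other way and by more than any other member probe set. It read 6.96, 7.18 and 7.15 in DMSO and 8.39, 8.27 and 8.65 with teriflunomide. Every treated array exceeded every control by more than 1 log2 unit, and the change was 1.34 (SE 0.12, 95% interval 1.04 to 1.64, limma adjusted p = 0.000586), or 2.53-fold. The difference between 243000_at and 224847_at within arrays moved from -6.99 ± 0.08 to -5.42 ± 0.19 (log2, SD, n = 3 per group, exact permutation p = 0.1, adjusted 0.167 over the 5 differences).

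The remaining CDK6 probe sets gave no call in the fit without a replicate block. On 207143_at the change was -0.35 (SE 0.19), on 235287_at it was 0.16 (SE 0.24), and both had overlapping groups. The dimmest, 231198_at, stayed at or below 2.35 and was not tested. Averaged over the tested probe sets, CDK6 stood at 0.03 (limma adjusted p = 0.703), so the direction for the gene rests on which probe set is read. The transcript part that each probe set matches was not analysed here. The difference between CDK6 on 224847_at and CDK4 within arrays moved by -0.07, with overlapping groups (exact permutation p = 0.2, adjusted 0.25 over the 5 differences).

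**Figure D3:**
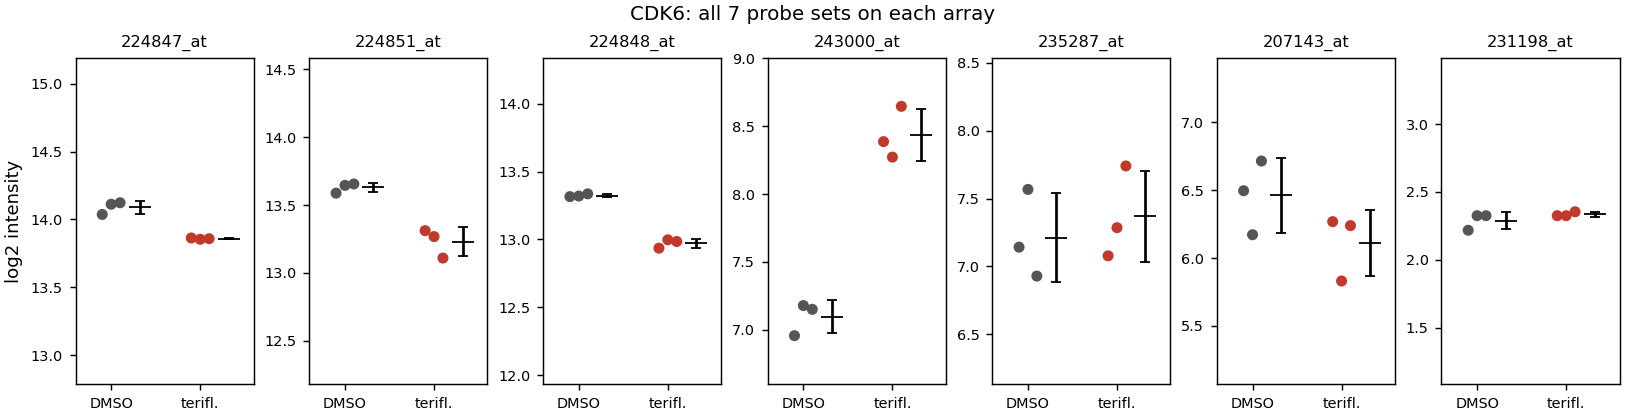
Log2 intensity of all 7 CDK6 probe sets on each array, ordered by mean intensity (grey points DMSO, red points teriflunomide; black bars mean ± SD, n = 3 per group); every panel spans the same log2 range. The 3 bright probe sets change by -0.23 to -0.40, 243000_at by 1.34, and the groups overlap for the others.

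Among the inhibitors, CDKN1B, which encodes p27, rose on its only probe set. The DMSO arrays read 12.54, 12.58 and 12.43 and the teriflunomide arrays 12.79, 12.84 and 12.65. The groups were apart, though the lowest treated array lay only just above the highest control. The change was 0.24 (SE 0.07, 95% interval 0.07 to 0.41, limma adjusted p = 0.026), or 1.18-fold. At gene level this call was lost without DMSO replicate 1 or 3, without teriflunomide replicate 1 or 2, and with no filter. It held under the other 11 of 16 alternatives, among them the replicate block (limma adjusted p = 0.0103). Adjusted over all probe sets, it was also lost without DMSO replicate 2 (limma adjusted p = 0.0505).

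CDKN1C, which encodes p57, was near the lowest value of the arrays on all 5 probe sets, none above 3.06. One of them, 219534_x_at, passed the filter, with 2.50, 2.75 and 2.75 in DMSO and 3.00, 2.96 and 2.99 with teriflunomide. Limma called it higher by 0.32 (SE 0.08, adjusted p = 0.0143). With values under log2 5 raised to 5 the change was 0, so this call rests on differences close to background. Adjusted over all probe sets, it was lost without any 1 of the teriflunomide arrays. Without CDKN1C, the members called higher were CCND1 and CDKN1B.

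Around these members, 8 lists held 103 other genes of G1 control, its targets and stress signalling, of which 95 were tested. In all, 23 were called higher and 33 lower, to be read against the 29.7% and 28.9% of all genes. The lists below are described by their counts and medians, beside a median of 0.0015 for all genes.

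CDKN1A, which encodes p21, the third CIP/KIP inhibitor, rose most among the inhibitors. Its mean went from 9.83 ± 0.13 to 11.23 ± 0.08 (log2, SD, n = 3 per group), a change of 1.40 (SE 0.08, limma adjusted p = 0.000112). It was the only 1 of 4 tested genes on the list of other CDK inhibitors to be called; without teriflunomide replicate 3, 2 were. No gene of that list was called lower, and 0 had an unadjusted p under 0.05 in that direction in limma. CDKN2A, the INK4A and ARF gene, stood at 0.08, and CDKN2D, another INK4 inhibitor, at 0.22; neither passed, and both were chosen after their values were seen.

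The list of pocket proteins and E2F factors also held LIN9, LIN37, LIN52 and LIN54, which are neither. Of its 17 genes, 3 (RBL2, TFDP2 and LIN37) were called higher and 5 lower, with a median log2 change of -0.02. The higher calls ranged from 1 to 5 over the alternatives, with 5 without DMSO replicate 2. RB1, the retinoblastoma gene and the substrate of these kinases, stood at 0.17 (SE 0.06, limma adjusted p = 0.068; called under 6 of 16 alternatives), and E2F1 at 0.19 with overlapping arrays (limma adjusted p = 0.203). E2F2 fell by 0.52 (SE 0.08). TFDP2, a dimer partner of E2F proteins, was called higher, by 1.07, on its brightest probe set and by 0.57 on another, but changed by -0.53 and -0.34 on the remaining ones, so its direction is not settled.

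Downstream, 14 of 23 tested E2F target genes of S phase were called lower and 1 higher, with a median of -0.24. POLA1, the catalytic subunit of DNA polymerase alpha, changed by -0.84 (SE 0.06) and MCM2, a subunit of the replicative helicase, by -0.80 (SE 0.07). RFC4, of the clamp loader, rose by 0.14 (SE 0.03). Of 7 tested later cyclins and CDK1-related genes, 4 were called lower and 0 higher, with 0 higher at an unadjusted p under 0.05, and a median of -0.35. CCNB1 (cyclin B1) changed by -0.78 (SE 0.04), CCNF (cyclin F) by -0.74 (SE 0.10) and CCNA2 (cyclin A2) by -0.35 (SE 0.04). CDK1, the mitotic kinase, stood at 0.04 (limma adjusted p = 0.467) on the probe set used, and at -0.20 and past the threshold as the mean of its probe sets.

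The list of CDK-activating kinase and CDC25 phosphatase genes also held WEE1 and PKMYT1, which are neither and were not called. Of its 8 genes, 1 was called higher and 2 lower. Leaving out any 1 array except DMSO replicate 2 reduced the lower calls to 1. CCNH, the cyclin of the activating kinase, rose by 0.66 (SE 0.07), while CDC25A, which removes inhibitory phosphates from CDK2, fell by 0.47 (SE 0.04). Of 16 ubiquitin ligase parts and deubiquitinases that act on G1 regulators, 2 (CKS1B and USP2) were called higher and 5 lower, with a median of -0.11. Over the alternatives 1 to 4 were higher and 3 to 5 lower. SKP2, the F-box protein that targets p27 for breakdown, fell on all 3 probe sets, with changes of -0.24, -0.74 and -0.93. FBXO4, an F-box protein linked to cyclin D1, was dim and changed by -1.18 (SE 0.19), or by -0.27 with values under log2 5 raised to 5. USP2, a deubiquitinase, rose by 0.48 (SE 0.05) but lay under log2 5, and its change became 0 with values raised to 5. CUL1, the scaffold of the SKP2 ligase, changed by -0.64 on its bright probe set and by 2.70 on a dimmer one, opposite directions as with CDK6.

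Of 15 tested transcription factors known to act on cyclin D or CDKN1B genes, 10 were called higher and 3 lower, with a median of 0.54. KLF4, which was dim in DMSO (4.86 ± 0.99), rose by 4.48, and MXD1, an antagonist of MYC, by 1.64 (SE 0.04). FOXO3 and FOXO1, activators of CDKN1B transcription chosen after their values were seen, rose by 0.54 and 0.55. JUN and STAT3, both known to act on CCND1 and also chosen after their values were seen, rose by 1.38 and 1.14. The 3 called lower were MYCN, at -0.43 (SE 0.05), LEF1, of the WNT pathway, at -0.44 (SE 0.07), and TCF7L2, at -0.32. TCF7L2 was also chosen after its values were seen. Whether any of these factors bears on the changes of CCND1 or CDKN1B was not tested. The stress genes were ATF4, DDIT3, TRIB3, ASNS and GDF15, a list chosen with earlier results of these data known. All were called higher, from 1.10 for ATF4 to 9.48 for GDF15.

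**Figure D4:**
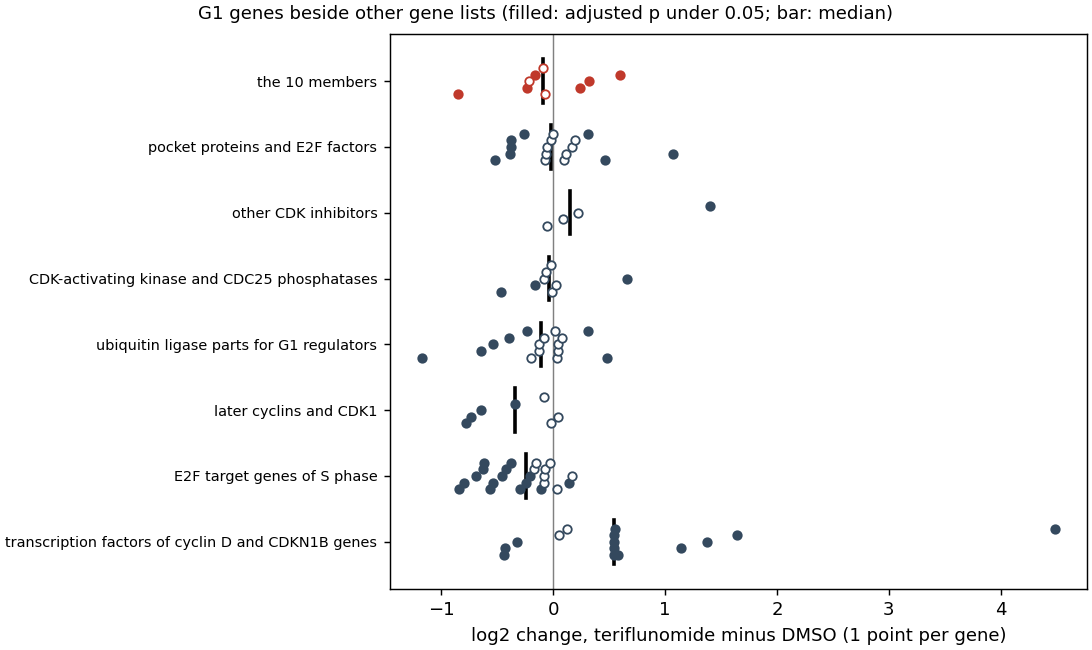
Log2 change (teriflunomide minus DMSO) of each tested gene, for the members (red) and 7 of the 8 lists (blue; the stress genes, which reach 9.48, are left out); filled points passed an adjusted p of 0.05 in limma, and black bars mark list medians. The members spread from -0.85 to 0.60 around a median of -0.09, while the later cyclins and E2F targets have medians of -0.35 and -0.24. Some lists go beyond their names: deubiquitinases stand with the ubiquitin ligases, WEE1 and PKMYT1 with the CDC25 genes, and LIN genes with the pocket proteins.

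The genes whose profile over the 6 arrays lay closest to CCND1, by the root mean square distance of mean-centred log2 values, were DCPS (0.031), RNF14 (0.035) and GSS (0.036). For CCNE1 they were RTN4IP1 (0.016), UGCG (0.032) and ACACA (0.034). Such likeness over 2 groups is common: 408 genes lay within 0.1 of CCND1 and 236 within 0.1 of CCNE1.

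Markers of the line and of other cells were read on the same arrays. Of 10 markers of sympathetic neuroblastoma, 9 had a probe set and 8 passed the filter, with summed log2 levels of 88.8 to 90.0 in DMSO and 87.2 to 87.9 with teriflunomide, and single markers went both ways. CHGA fell from 12.73 to 11.27 and MYCN from 15.11 to 14.69, while PHOX2A rose from 11.93 to 12.69, GATA3 from 13.23 to 13.58 and ISL1 from 10.25 to 10.47, all called by limma. GATA2 (13.43 and 13.35) and HAND2 (6.96 and 6.92) did not pass. TH lay at 2.18 and 2.19 and DBH was dim, at 3.41 in DMSO and 2.47 with teriflunomide. None of 4 blood and 3 endothelial markers passed. Of 4 epithelial markers 3 passed, all under 6, with CDH1 at the lowest value, and summed log2 levels ran from 14.7 to 15.3 in DMSO and from 14.9 to 15.2 with teriflunomide. Of 5 fibroblast markers 4 passed, and the sum was 40.0 to 40.4 in DMSO and 41.8 to 42.3 with teriflunomide. COL1A1 went from 10.81 to 11.75, COL3A1 from 10.56 to 10.93 and LUM from 11.40 to 12.01. PDGFRB stood at 5.22 in both groups and DCN at 2.18. The array's actin controls compare probes at the 3′ and 5′ ends of ACTB, a gap that grows with RNA breakdown or shorter targets. It was 1.36 ± 0.03 on the DMSO arrays and 1.62 ± 0.07 on the treated ones (log2, SD, n = 3 per group, exact permutation p = 0.1). For GAPDH it was 0.049 and 0.063 (exact permutation p = 0.4). The part of these differences in the results above was not tested.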

How the data were processed

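The authors deposited log2 expression values, 1 per probe set and array, made with GCRMA per the submitters' processing notes, in a version not given in the sources used here. GCRMA removes a sequence-based background estimate and makes the arrays' distributions alike, which hides any change shared by the whole transcriptome. Python 3.11.15 read the table. Names came from the platform annotation; of 54675 probe sets, 41091 that were not controls had 1 symbol, and the 29 of the 10 genes were taken.

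Probe sets reaching the array median on 3 or more of the 6 arrays were tested, 27290 in all. Limma 3.58.1 (R 4.3.3), with lmFit and eBayes, compared the groups without covariates, tested on simulated data beforehand. It was fitted to all 27290 probe sets, and to 11998 genes, each by its probe set with the highest mean. Benjamini-Hochberg adjustment ran over each whole table, with a two-sided threshold of 0.05. Alternatives were 2 filters, quantile normalization, centring, raising dim values to log2 5, trended eBayes, array weights, the replicate block, other choices among probe sets and leaving out each array.

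Members, lists and tests were chosen with earlier results of these data known. The naming rule took all members, 7 further genes by name, and per list the 2 largest called changes and the largest opposite one. Cell type markers came from fixed lists, and the genes closest to CCND1 and CCNE1 were taken by the distance rule. Any other gene was chosen after its values were seen.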

Additional observations from a re-analysis of the deposited data

How the results depend on the processing

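CCND1, CCND3, CCNE1, CDK2 and CDK4 kept their direction and their side of the threshold at gene level under all 16 alternatives. CCNE2, at -0.22 and not called, was called at -0.22 with the filter at the 75th percentile and with trended and robust eBayes, at -0.24 with arrays centred on the median, and at -0.45 where a gene's probe sets were averaged. CDK6 then stood at 0.027. CDKN1B, at 0.24, was not called with no filter, and CDKN1C stood at 0 with values under log2 5 raised to 5. Member probe sets called higher numbered 3 instead of 5 with no filter. The cause of these moves was not tested, except that the CDK6 mean holds 243000_at and that CDKN1C lies wholly under log2 5. Leaving out 1 array at a time gave changes of -0.28 to -0.14 for CCNE2, 0.20 to 0.30 for CDKN1B and 3 to 4 member probe sets called higher. CDK6 235287_at, not called, ranged from -0.031 without teriflunomide replicate 3 to 0.33. TFDP2 stood at -0.53 where a plain suffix was preferred, and CUL1 at 2.70. With averaged probe sets CUL1 stood at 1.03 and CDK1 at -0.20. Deviations of same-numbered arrays from their group means correlated at 0.13, 0.15 and -0.045, and 4 of the 6 arrays correlated best with their own number. Whether the number marks a pairing is not settled by these values, and the main fit took none. With the replicate number as a block, 3 of the members were called higher and 3 lower, as without it, while member probe sets called lower went from 6 to 7, as CDK6 207143_at (-0.35) passed with a limma adjusted p of 0.028. The lower calls among CDK-activating kinase and CDC25 genes went from 2 to 1. Over all genes, 3359 were called higher and 3282 lower instead of 3560 and 3471. Arrays give no read depth; 3 per group limit the precision, and values near 2.18 show no change.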
